A study of Mus musculus with 10 samples.

Results

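The mouse copies of alpha-1 antitrypsin (Serpina1a, Serpina1b, Serpina1c, Serpina1d and Serpina1e) and of alpha-1 antichymotrypsin (Serpina3c, Serpina3f, Serpina3k, Serpina3m and Serpina3n) were followed in liver RNA. They were taken by gene symbol, and all 10 were among the 24972 symbols of the table. The family was chosen by its measured difference between these same groups in an earlier reading of the data, so that difference is given below as a description. RNA came from livers of 4 samples labelled Tcell low and 6 labelled Tcell high. The Tcell low livers came from hosts bearing a tumour of the line 6419c1, and the Tcell high livers from hosts bearing a tumour of the line 6555c3. Both are lines derived from KPC mice, a genetic model of pancreatic ductal adenocarcinoma, and their names refer to tumours that hold few or many T cells. All groups are labelled WT for genotype, and no liver without a tumour is among them. Each group rests on 1 line, so line and T cell class cannot be told apart. For age, strain, tumour site and the number of mice per library, the labels say nothing. Errors and p-values below measure the spread between samples that may not be separate mice, so part of it can be technical.

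Serpins are secreted or intracellular inhibitors of serine proteases. A flexible reactive centre loop near the end of the protein serves as bait: the protease cuts it and is trapped in a covalent complex that is then cleared from plasma. Alpha-1 antitrypsin is made mainly by hepatocytes, and the human protein is the chief plasma inhibitor of neutrophil elastase. Alpha-1 antichymotrypsin is a human acute phase protein that inhibits cathepsin G. Humans have a single gene for each, whereas the mouse has families of neighbouring copies whose loops, and so whose protease targets, differ.

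The copies lie together on chromosome 12. In GENCODE M21, on the assembly also named mm10, they run in the order Serpina1b (103728156 to 103830373), Serpina1d (103763594 to 103773592), Serpina1a (103853589 to 103863562), Serpina1c (103894926 to 103904887) and Serpina1e (103946931 to 103958975), all on the minus strand. Serpina3c (104146382 to 104153870, minus strand) follows, then Serpina3f (104214544 to 104221129), Serpina3k (104338486 to 104346144), Serpina3m (104338486 to 104394257) and Serpina3n (104406729 to 104414329) on the plus strand. The annotated span of Serpina1d lies within that of Serpina1b with 0 shared exon bases. Serpina3k lies within Serpina3m with 60 shared exon bases, 0 of them in the last 400 bases of either transcript.

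The stretch that codes for the reactive centre loop is shown first because it is where the copies part. It is a coding part of the last exon, and it was found by translating each coding sequence and taking the bases from the conserved start of the loop hinge to the base before the conserved strand that follows. The 5 Serpina1 stretches are 66 bases each, read 5′ to 3′ on the gene's own strand, with capitals at the 15 positions where the copies differ among themselves. They lie at chr12:103853765-103853830 (Serpina1a), chr12:103728332-103728397 (Serpina1b), chr12:103895102-103895167 (Serpina1c), chr12:103763770-103763835 (Serpina1d) and chr12:103947108-103947173 (Serpina1e), all on the minus strand of mm10.
Serpina1a: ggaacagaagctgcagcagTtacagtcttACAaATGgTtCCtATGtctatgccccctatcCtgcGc
Serpina1b: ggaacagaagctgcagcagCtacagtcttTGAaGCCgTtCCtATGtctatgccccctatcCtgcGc
Serpina1c: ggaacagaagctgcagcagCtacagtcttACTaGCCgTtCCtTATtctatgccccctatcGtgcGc
Serpina1d: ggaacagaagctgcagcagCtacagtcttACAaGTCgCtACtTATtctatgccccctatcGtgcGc
Serpina1e: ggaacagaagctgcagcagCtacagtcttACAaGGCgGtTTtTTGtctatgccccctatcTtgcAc
The differences from Serpina1a number 6 in Serpina1b, 9 in Serpina1c, 9 in Serpina1d and 10 in Serpina1e, and most sit in the middle of the stretch. Between any pair of Serpina1 copies the loop stretch was 84.8% to 93.9% identical, against 96.8% to 99.1% for the rest of the coding sequence, and the loop was the less alike part in 10 of 10 pairs.

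For the Serpina3 copies the same stretch is given with capitals at bases that do not match Serpina3n in a pairwise alignment, so Serpina3n itself has none. They lie at chr12:104147322-104147387 (Serpina3c, minus strand), chr12:104220245-104220322 (Serpina3f), chr12:104345269-104345337 (Serpina3k), chr12:104393769-104393843 (Serpina3m) and chr12:104413448-104413522 (Serpina3n), the last 4 on the plus strand of mm10.
Serpina3c: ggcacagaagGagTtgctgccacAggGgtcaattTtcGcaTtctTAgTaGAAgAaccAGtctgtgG
Serpina3f: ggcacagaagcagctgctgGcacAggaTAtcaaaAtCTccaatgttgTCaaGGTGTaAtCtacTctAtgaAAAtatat
Serpina3k: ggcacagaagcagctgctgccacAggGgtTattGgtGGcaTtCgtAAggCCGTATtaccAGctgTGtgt
Serpina3m: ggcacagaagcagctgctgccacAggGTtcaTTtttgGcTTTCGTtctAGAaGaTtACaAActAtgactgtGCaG
Serpina3n: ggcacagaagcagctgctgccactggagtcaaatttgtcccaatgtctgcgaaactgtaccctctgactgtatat
These stretches vary in length from 66 bases in Serpina3c to 78 bases in Serpina3f. Whole coding sequences of Serpina3 pairs were 81.2% to 92.0% identical, and the loop was 65.3% to 79.2% identical and the less alike part in 10 of 10 pairs. Serpina3 copies were thus less alike than Serpina1 copies in the loop and outside it.

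How alike the copies are decides how well reads can be assigned, because the libraries were made with a 3′ end kit (QuantSeq FWD) and reads come from the last bases of a transcript. The final 400 bases of each copy were divided into overlapping words of 50 bases, and 55.0% in Serpina1a, 37.7% in Serpina1b, 39.6% in Serpina1c and 53.3% in Serpina1d of these words occurred in another gene as well. The other gene could be one that is no copy followed here: Gm8893, not analysed here, held words of all 5 Serpina1 copies and more of those of Serpina1a than any other gene did. Serpina1e shared 17.2% of its words, and its closest partner was Serpina1d with 8.6%. Serpina3c, Serpina3k, Serpina3m and Serpina3n shared 0 of theirs, and Serpina3f shared 3.6%. With the level of sharing that counts as uncertain set at 20%, 4 of 5 Serpina1 copies and 0 of 5 Serpina3 copies passed it. The separate values of Serpina1a to Serpina1d are therefore uncertain, since reads of one may be counted for another or dropped, and their sum is given beside them.

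**Figure D1:**
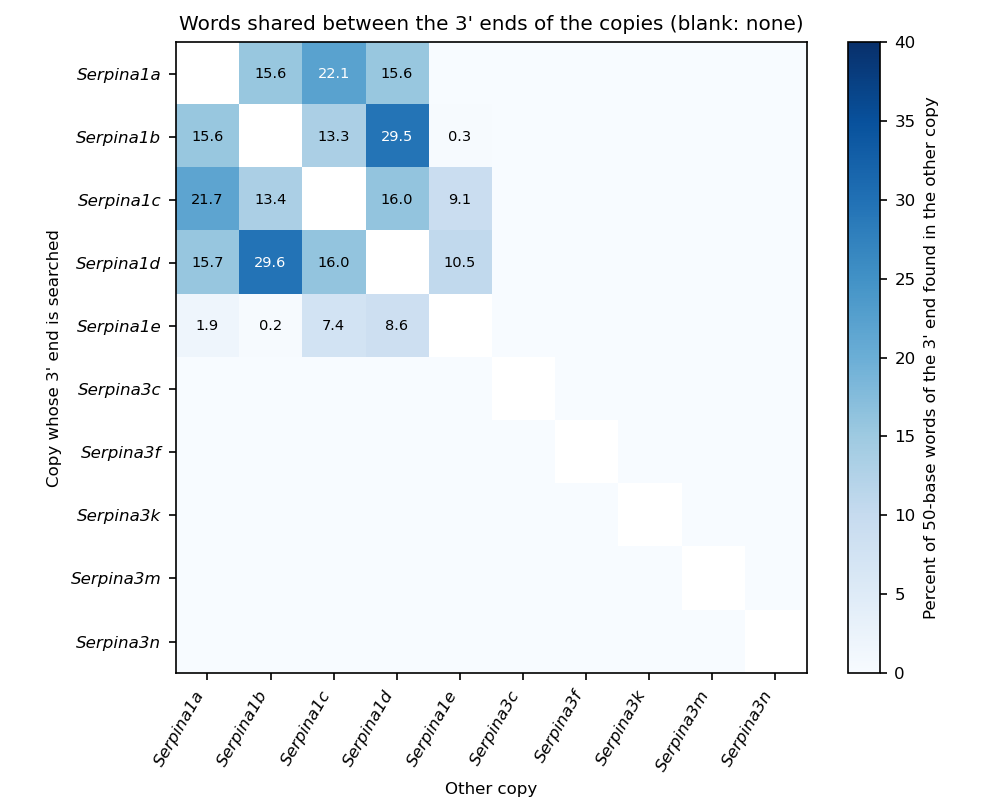
Percent of the 50-base words in the last 400 transcript bases of each copy (rows) that occur in a transcript of each other copy (columns), with blank cells where no word is shared. Sharing is highest between Serpina1b and Serpina1d (29.5% and 29.6%), is at most 8.6% in the row of Serpina1e and 10.54% in its column, and is absent among the Serpina3 copies.

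Values below are scaled counts, the authors' gene counts brought to a common depth. Library totals of these ran from 7060780 to 8257370 in Tcell low and from 7000660 to 7513620 in Tcell high libraries, and the number of raw reads is unknown. Liver identity was plain, with Alb at 144745 to 238266 scaled counts in Tcell low and 68423 to 295529 in Tcell high libraries. The libraries do not form 2 even groups. Tcell low 1 correlated over genes at a mean of 0.861 with its own group and 0.936 with Tcell high. Tcell high 1, 3, 5 and 6 stood apart with 3465 to 9359 scaled counts of the beta globin gene Hbb-bs, against 118 to 215 in Tcell low and 16.2 to 99.7 in Tcell high 2 and 4. The gene H2-L, of the major histocompatibility complex, separated the same libraries: it was listed at 0 in Tcell high 1, 3, 5 and 6, against 307 to 1477 scaled counts in Tcell low and 393 to 1271 in Tcell high 2 and 4. The source of this split was not tested. Fold changes against Tcell high 2 and 4 alone are given below for the tested copies, the full sum of each subfamily and the called genes named from the 4 related lists.

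The difference between groups was fitted over every gene whose mean reached 10 scaled counts, on the log2 of the scaled count plus 1 (limma, a linear model that pools variance over genes). A gene is called when its p, adjusted over all 11110 genes tested, is below 0.05. Of the genes tested 12.8% were called, 5.39% higher and 7.39% lower in Tcell low livers, and the median log2 fold change was 0.003. Of the 10 copies 9 could be tested, and 3 were called, all 3 higher: Serpina1e, Serpina3k and Serpina3n. The same 3 had groups that did not overlap, as did 7.39% of all tested genes in either direction with 3.37% where Tcell low lay above and 4.02% where it lay below. Nothing is read from these counts, and no p is given for the copies. The median log2 fold change of the 9 tested copies was 0.54.

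**Figure D2:**
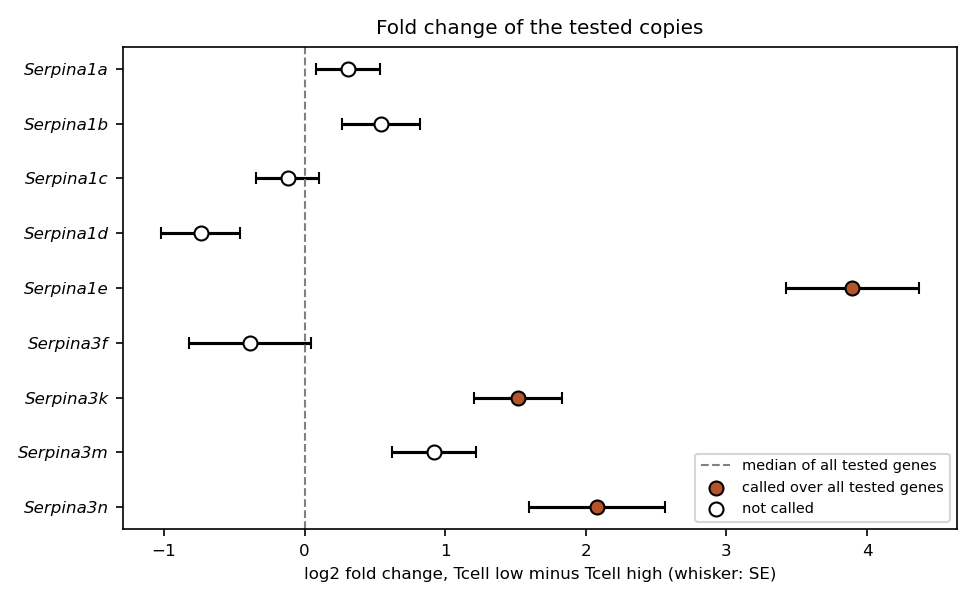
Log2 fold change of the 9 tested copies, Tcell low minus Tcell high, with its standard error, and the median of all tested genes as a dashed line. Filled points mark the 3 called copies, of which Serpina1e (3.90) lies farthest to the right, while the other Serpina1 copies lie between -0.74 and 0.54.

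Among the antitrypsin copies, Serpina1e stood apart. It had 7157, 29912, 29550 and 56451 scaled counts in Tcell low 1, 2, 3 and 4, against a lowest value of 957, a median of 1660 and a highest value of 2906 in Tcell high livers. Every Tcell low library lay above every Tcell high library, with Tcell low 1 the lowest of its group. The log2 fold change was 3.90 (SE 0.48), and it ranged from 3.49 to 4.49 when each library was left out in turn, with the call kept in 10 of 10. Against Tcell high 2 and 4 alone it was 4.08 (SE 0.71), no longer called in a fit that called 0 genes in all by limma (1027 at an unadjusted p below 0.05).

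Serpina1d, which shares more of its 3′ end, was on the other side. It had 21963, 23751, 18371 and 24317 scaled counts in Tcell low livers. In Tcell high livers it had a lowest value of 21481, a median of 42059 and a highest value of 58645, and the log2 fold change was -0.74 (SE 0.28, not called). The spread within the Tcell high group followed the libraries that stand apart: Tcell high 1, 3, 5 and 6 had 41117 to 58645 scaled counts, and Tcell high 2 and 4 had 21481 and 24070, within the Tcell low range. Without the first 4 of these the log2 fold change was -0.05 (SE 0.28). It passed the test when Tcell high 2 alone was left out (-0.89, SE 0.25). Its 3′ end shares more words with Serpina1b than with any other copy. Serpina1b and Serpina1d summed had 62413, 134999, 116575 and 92300.5 scaled counts in Tcell low livers. In Tcell high livers this sum was 63996 at the lowest, 91169 at the median and 119212 at the highest, a log2 fold change of 0.14. Whether reads of one were counted for the other was not tested.

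Serpina1a, Serpina1b and Serpina1c moved little. Serpina1a had 32288, 51301, 52457 and 49113 scaled counts in Tcell low livers, against 28306 at the lowest, 38533 at the median and 45235 at the highest in Tcell high livers (log2 fold change 0.31, SE 0.23, not called). Serpina1b had 40449, 111249, 98204 and 67984 in Tcell low livers, against 39926, 49976 and 60567 at the lowest, median and highest in Tcell high livers (0.54, SE 0.28, not called). For both copies Tcell low 1 lay within the Tcell high range and Tcell low 2, 3 and 4 lay above it. Without Tcell low 1, Serpina1b was called (0.84, SE 0.23) and Serpina1a was at 0.48 (SE 0.21, not called). Against Tcell high 2 and 4 alone Serpina1a was at 0.66 (SE 0.32) and Serpina1b at 0.60 (SE 0.44), neither called. Serpina1c had 36610, 38063, 44625 and 32458 in Tcell low livers, against 27286, 43641 and 54693 in Tcell high livers (-0.12, SE 0.22, not called), with full overlap of the groups. Against Tcell high 2 and 4 alone its sign turned (0.27, SE 0.30, not called).

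Summing copies removes the question of which of the summed copies a shared read belongs to. It does not settle reads dropped or counted for Gm8893. Nor does a sum without Serpina1e settle reads shared with it, as 9.12% of Serpina1c words and 10.54% of Serpina1d words occur in Serpina1e. Serpina1a to Serpina1d together had 131311, 224364, 213658 and 173872 scaled counts in Tcell low livers. In Tcell high livers their sum was 119588 at the lowest, 173569 at the median and 219141 at the highest, a log2 fold change of 0.13. This sum was not refitted without single libraries or against Tcell high 2 and 4 alone. With Serpina1e added, the sum of all 5 copies was 216568 ± 52979 in Tcell low and 171069 ± 34240 in Tcell high livers (SD, n = 4 and 6), a log2 fold change of 0.33 (SE 0.22). The sums overlapped through Tcell low 1 alone (138468), since Tcell low 2, 3 and 4 (254276, 243207 and 230322) lay above the highest Tcell high value (222046). Without Tcell low 1 the log2 fold change was 0.53 (SE 0.18), the highest of a range that began at 0.23 when each library was left out in turn. Against Tcell high 2 and 4 alone it was 0.66 (SE 0.32). The make-up of the sum differed as well. Serpina1e made up 5.17%, 11.8%, 12.2% and 24.5% of the sum in Tcell low 1, 2, 3 and 4, against 0.634% to 1.79% in Tcell high livers. Serpina1d made up 7.55% to 15.9% in Tcell low and 14.6% to 26.4% in Tcell high livers. Serpina1a held 20.2% to 23.3% in Tcell low and 19.8% to 23.6% in Tcell high livers. Shares are of counts, and fewer cells of a type and less RNA per cell cannot be told apart in bulk liver.

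**Figure D3:**
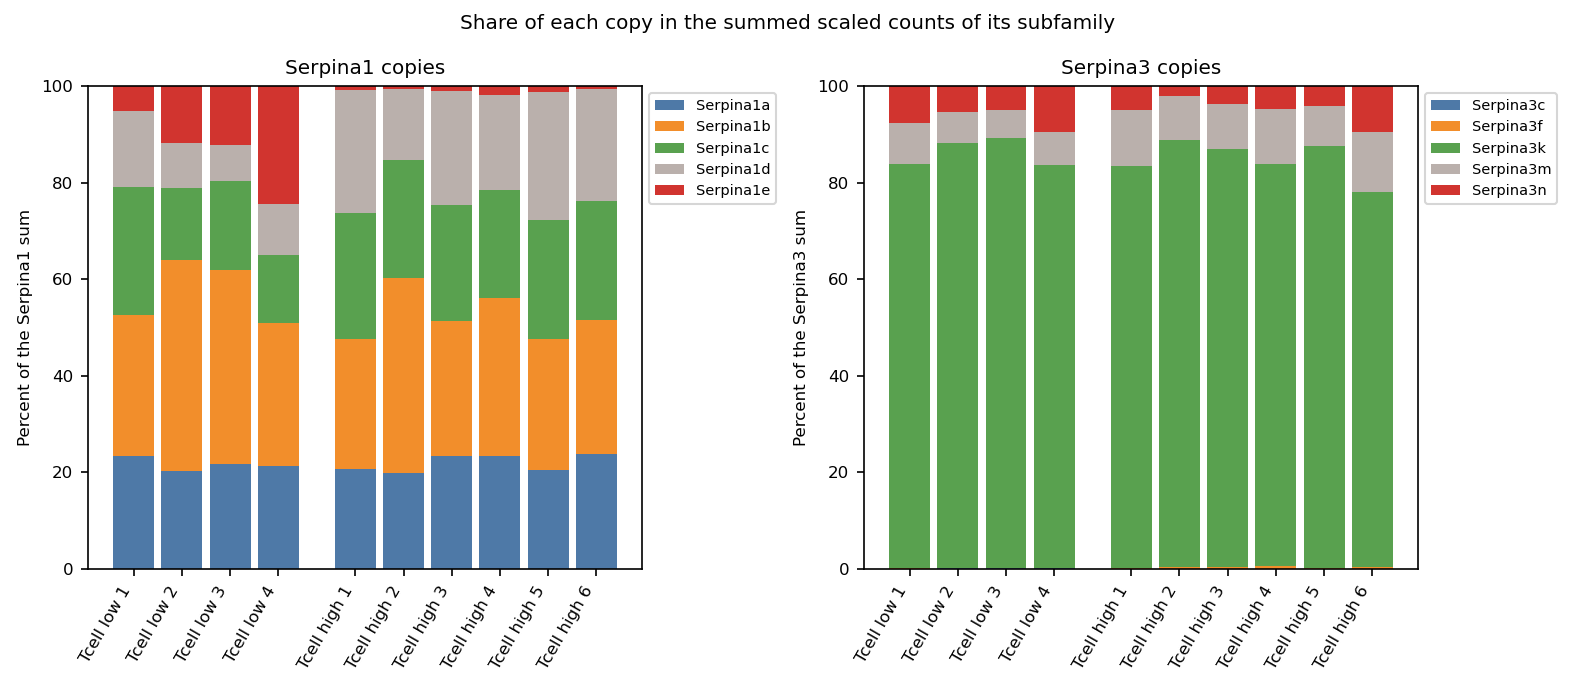
Percent of the summed scaled counts of the Serpina1 copies (left) and of the Serpina3 copies (right) held by each copy in each library, Tcell low libraries left of Tcell high libraries. Serpina1e takes 5.17% to 24.5% of the Serpina1 sum in Tcell low livers and at most 1.79% in Tcell high livers, while Serpina3k takes 77.8% to 89.0% of the Serpina3 sum in every library.

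The antichymotrypsin copies showed a rise of the whole sum. Together the 5 copies had 57116, 125227, 93647 and 215061 scaled counts in Tcell low 1, 2, 3 and 4, against 30714 at the lowest, 37469 at the median and 52119 at the highest in Tcell high livers. The groups did not overlap, and the log2 fold change of the sum was 1.49 (SE 0.34), with 1.16 to 1.80 when each library was left out in turn and 1.69 (SE 0.61) against Tcell high 2 and 4 alone. Most of this was Serpina3k, known as contrapsin, an inhibitor of trypsin in mouse plasma. Serpina3k had 47820, 110252, 83391 and 179553 scaled counts in Tcell low livers, against 27182, 31727 and 45637 at the lowest, median and highest in Tcell high livers (log2 fold change 1.52, SE 0.31, called). Its lowest Tcell low value, that of Tcell low 1, was close to its highest Tcell high value, that of Tcell high 5.

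Serpina3n, a copy that in mice inhibits granzyme B and is induced by glucocorticoids and inflammation, had 4429, 6703, 4723 and 20310 scaled counts in Tcell low livers. Tcell high livers had 660 at the lowest, 1851 at the median and 3993 at the highest (log2 fold change 2.08, SE 0.48, called). Tcell low 4 lay far above the other Tcell low libraries, and without it the log2 fold change was 1.59 (SE 0.43, not called). Serpina3k without Tcell low 4 was 1.21 (SE 0.28, not called). Without Tcell low 2 neither was called (2.12, SE 0.55 for Serpina3n and 1.44, SE 0.36 for Serpina3k), and Serpina3n was also not called without Tcell high 3 (2.02, SE 0.52). Against Tcell high 2 and 4 alone the log2 fold changes were 2.74 (SE 0.63) for Serpina3n and 1.69 (SE 0.48) for Serpina3k, neither called.

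Serpina3m had 4791, 8182, 5460 and 15090 scaled counts in Tcell low livers, against 2747, 4276 and 5293 at the lowest, median and highest in Tcell high livers. The groups overlapped only through Tcell low 1, which lay below the highest Tcell high value, and the log2 fold change was 0.92 (SE 0.30, not called). It was called without Tcell low 1 (1.14, SE 0.29), and without Tcell low 4 it was at 0.59 (SE 0.24, not called). Against Tcell high 2 and 4 alone it was also at 1.14 (SE 0.46, not called). As a share of the Serpina3 sum it held 5.83% to 8.39% in Tcell low and 8.30% to 12.5% in Tcell high livers. Its mean share was thus lower in the group with its higher mean level. This did not hold from library to library, since Tcell high 6 had both the highest level and the highest share of its group.

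The remaining antichymotrypsin copies were low in liver. Serpina3f had 76.4, 52.6, 59.9 and 66.7 scaled counts in Tcell low livers, against 24.5, 101 and 168 at the lowest, median and highest in Tcell high livers, and the Tcell low values lay inside that range (log2 fold change -0.39, SE 0.43, not called). The value depended on single Tcell high libraries, with -0.73 (SE 0.29) without Tcell high 5 and -0.19 (SE 0.42) without Tcell high 4, neither called. Tcell high 2 and 4 had 126 and 168, above all Tcell low values, and against these alone the log2 fold change was -1.19 (SE 0.35, not called). Serpina3c, which encodes a kallikrein-binding protein, had a mean over all libraries of 9.77, just below the minimum for testing. It was listed at 0 in Tcell low 1 and at 38.4, 13.3 and 41.2 in Tcell low 2, 3 and 4. In Tcell high livers it was listed at 0 in 4 libraries and at 3.75 and 1.05 in Tcell high 1 and 5. Without Tcell low 1, where it was at 0, its mean passed the minimum only through Tcell low 2, 3 and 4, and it was called. It was also tested with no filter on low values and when each Tcell high library was left out. In none of those fits was it called. Its call without Tcell low 1 is not counted here. The 5 other copies called in that fit were Serpina1b, Serpina1e, Serpina3k, Serpina3m and Serpina3n, where 32.7% of all tested genes were called.

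**Figure D4:**
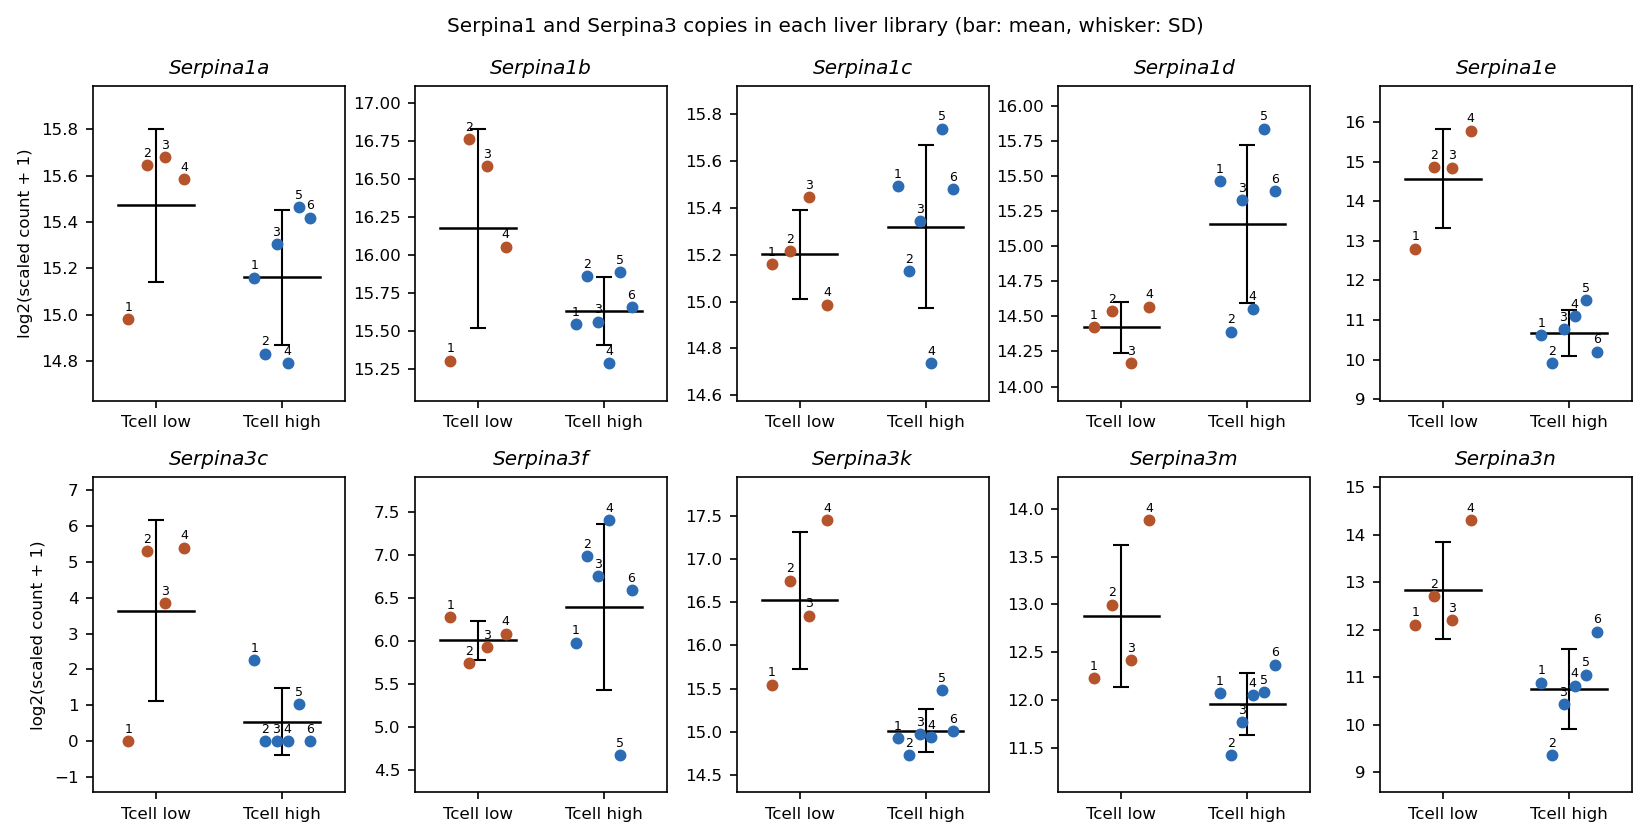
Log2 of the scaled count plus 1 of each copy in each library (points, numbered by replicate), Tcell low left of Tcell high, with the group mean (bar) and SD (whisker), and a separate vertical axis for each copy. Serpina1e, Serpina3k and Serpina3n show no overlap between the groups, Serpina1d splits the Tcell high group, and Tcell low 1 is the lowest Tcell low library for 7 of the 10 copies.

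The copies rose and fell with each other to very different degrees over the 10 libraries. On the log2 scale Pearson's r was 0.96 for Serpina3m and Serpina3n, 0.91 for Serpina3k and Serpina3m, and 0.97 for Serpina1e and Serpina3k. Within the 6 Tcell high libraries the first of these pairs kept 0.98, and the others had 0.48 and 0.79. Serpina1d and Serpina1e had -0.53 over all 10 libraries and 0.48 within Tcell high. Serpina3f had negative values with all 8 other tested copies, from -0.71 to -0.30. All these values share libraries and scaling, and those over 10 libraries contain the group difference, so they are descriptions only.

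Genes whose pattern over the 10 libraries was most like that of the copies were taken from 7736 tested genes whose mean reached 50 scaled counts. For the Serpina1 sum the closest were H1f0 (Pearson's r 0.95), which encodes a linker histone, the kinase gene Hipk3 (0.94) and Azgp1 (0.93), which encodes a secreted zinc-binding glycoprotein. For the Serpina3 sum they were Cox7a2l (0.99), a gene of respiratory supercomplex assembly, the apolipoprotein gene Apoa4 (0.98) and the ribosomal protein gene Rpl27a (0.98). For Serpina3n they were the AP-1 family gene Fosl2 (0.95), Alox5ap (0.93), which encodes an activator of leukotriene synthesis, and Nnmt (0.93), which encodes a methyltransferase of nicotinamide. These are the highest of 7736 values for each pattern, over 10 libraries that include the group difference, and they are descriptions only.

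Promoters are shown for the pair with the most alike windows in each subfamily. The RefSeq table held the window from 250 bases before to 50 bases after the start for 8 of the 10 copies (GRCm38.p6), with no entry for Serpina3k and Serpina3m. The windows of Serpina1e (chr12:103956848-103957147, minus strand) and Serpina1b (chr12:103738140-103738439, minus strand) follow, with capitals at GTTAAT, the core of the site of the hepatocyte factor HNF1.
Serpina1e: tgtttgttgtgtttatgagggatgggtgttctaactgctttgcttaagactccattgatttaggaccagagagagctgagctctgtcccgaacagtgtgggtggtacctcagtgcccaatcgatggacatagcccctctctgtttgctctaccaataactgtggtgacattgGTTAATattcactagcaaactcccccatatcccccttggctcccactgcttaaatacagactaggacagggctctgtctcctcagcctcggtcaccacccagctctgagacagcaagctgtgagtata
Serpina1b: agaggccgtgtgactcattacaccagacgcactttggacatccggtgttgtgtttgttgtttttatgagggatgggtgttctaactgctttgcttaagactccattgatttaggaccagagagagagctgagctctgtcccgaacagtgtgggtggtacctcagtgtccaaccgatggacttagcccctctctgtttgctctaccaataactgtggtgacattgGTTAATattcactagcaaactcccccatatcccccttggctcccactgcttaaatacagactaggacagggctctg
Over 248 aligned bases the pair was 98.4% identical, and over the 10 libraries Pearson's r of their log2 values was 0.68. Serpina1e had a log2 fold change of 3.90 and Serpina1b of 0.54. This core, searched on both strands, was in the windows of all 5 Serpina1 copies and of Serpina3c, and in 7.1% of all 32851 windows. It began 78 bases before the annotated start of Serpina1e and 16 to 27 bases before that of the other Serpina1 copies. The full palindrome of HNF1 was in 0 of the 8 and in 0.00913% of all windows.

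Serpina3n and Serpina3c are shown as the copies with the most alike promoters in the other subfamily. Their windows were 93.5% identical over 294 aligned bases, against 70.3% for Serpina3n and Serpina3f. Capitals mark the palindromic site of the glucocorticoid receptor, GNACA and TGTNC set 3 bases apart, in the windows of Serpina3n (chr12:104406458-104406757, plus strand) and Serpina3c (chr12:104153823-104154122, minus strand).
Serpina3n: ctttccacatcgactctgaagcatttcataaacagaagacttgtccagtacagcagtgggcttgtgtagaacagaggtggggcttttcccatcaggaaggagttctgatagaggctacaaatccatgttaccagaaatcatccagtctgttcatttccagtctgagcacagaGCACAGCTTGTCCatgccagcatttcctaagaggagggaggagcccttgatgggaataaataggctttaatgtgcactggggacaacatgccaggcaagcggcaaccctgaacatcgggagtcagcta
Serpina3c: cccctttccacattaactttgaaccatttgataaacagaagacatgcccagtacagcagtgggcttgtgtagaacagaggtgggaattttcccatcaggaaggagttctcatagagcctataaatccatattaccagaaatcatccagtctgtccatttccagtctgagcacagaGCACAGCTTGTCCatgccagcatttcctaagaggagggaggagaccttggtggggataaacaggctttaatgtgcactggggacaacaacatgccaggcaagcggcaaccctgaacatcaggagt
This site was in these 2 of the 8 windows and in 0.475% of all windows. It begins 78 bases before the start in Serpina3n and 75 bases before it in Serpina3c. Of the 2 other motifs searched, the C/EBP site TTGCNNAA was in 5 of the 8 windows (10.8% of all) and the STAT site TTCNNNGAA was in 1, that of Serpina3f (8.3% of all). The motifs do not overlap each other where they are printed, and a match is a description of letters, not of binding.

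Other serpins were read from a list of 30 that covers further clade A serpins and serpins of clotting, complement and leukocytes. Of 18 tested, 0 rose, 3 fell and 15 did not pass, and their median log2 fold change was -0.69. Over all tested genes 5.39% were called higher and 7.39% lower. With no filter on low values, or with a minimum mean of 50, 1 other serpin was called higher and 3 lower. Serpina6, which encodes corticosteroid-binding globulin, the plasma carrier of glucocorticoids, had 426, 25.7, 38.2 and 21.1 scaled counts in Tcell low livers, against 605, 759 and 986 at the lowest, median and highest in Tcell high livers. The log2 fold change was -3.80 (SE 0.64, limma adjusted p = 0.00989). All Tcell low libraries lay below all Tcell high libraries, with Tcell low 1 far above the other 3. Serpinb1a, an intracellular inhibitor of neutrophil proteases, had 62.1, 55.3, 52.8 and 20.96 in Tcell low livers, against 171, 259 and 385 in Tcell high livers (-2.48, SE 0.32, adjusted p = 0.00331, limma). Serpinf1, which encodes pigment epithelium-derived factor, averaged 807 ± 261 in Tcell low and 1663 ± 356 in Tcell high livers (SD, n = 4 and 6; -1.07, SE 0.24, adjusted p = 0.0215 by limma). The first pair stayed called without any 1 library, while Serpinf1 was lost without Tcell low 2 or 4 or Tcell high 3 or 5 (adjusted p up to 0.0775 by limma). Against Tcell high 2 and 4 alone the log2 fold changes were -3.55 for Serpina6, -2.51 for Serpinb1a and -0.70 for Serpinf1, none called.

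Serine proteases, some metalloproteases, which these serpins are not known to inhibit, and receptors for protease complexes and glycoproteins formed a list of 26. Of 13 tested, 1 rose, 0 fell and 12 did not pass, with a median log2 fold change of -0.33. The share called over all tested genes was 12.8%. The gene that rose, Mmp14, is one of the metalloproteases and not a serine protease (1188 ± 289 in Tcell low and 691 ± 112 scaled counts in Tcell high livers, SD, n = 4 and 6; 0.76, SE 0.20, adjusted p = 0.0336 by limma). It was lost in 7 of the 10 fits without 1 library (adjusted p 0.00434 to 0.118 by limma), and was kept without Tcell low 1, Tcell high 2 or Tcell high 4. Against Tcell high 2 and 4 alone its log2 fold change was 0.56, not called. The serine protease target Elane, neutrophil elastase, was at 0 to 6.53 scaled counts in Tcell low and 0 to 1.82 in Tcell high livers, and Ctsg, cathepsin G, was listed at 0 in all 10. Prtn3, proteinase 3, the other neutrophil serine protease of the list, had 63.6 to 297 in Tcell low and 0 to 114 in Tcell high livers (2.75, SE 1.08, adjusted p = 0.0974 by limma). These 3 were named after their values were seen.

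The neutrophil markers that could be tested were higher in Tcell low livers, as were Serpina1e, Serpina3k and Serpina3n. Over all tested genes 5.39% were called higher and 7.39% lower. Of 10 markers 4 passed the minimum and were called higher, but Ngp (38.6 ± 22.3 in Tcell low and 1.45 ± 2.65 in Tcell high livers, SD, n = 4 and 6) and Retnlg (42.1 ± 16.5 in Tcell low and 8.23 ± 6.95 in Tcell high livers) passed it only through Tcell low livers, so the count is partly set by the filter. The summed level of the list was 654 to 1768 scaled counts in Tcell low and 45.02 to 219 in Tcell high livers, with 0 of 10 at 0 in all libraries. S100a8 had 363 to 995 in Tcell low and 15.4 to 89.7 in Tcell high livers. Within Tcell low it was lowest in Tcell low 2, whereas Serpina1e, Serpina3k and Serpina3n were lowest in Tcell low 1. Csf3r was the only listed marker with a lower mean in Tcell low livers (0.41 against 1.58), below the minimum for testing. The part of neutrophils in the copies' rise was not tested. For hepatocyte markers, 2 of 7 rose and 0 fell, with a summed level of 435447 to 605055 in Tcell low and 264458 to 509368 in Tcell high livers, and their part was not tested either. Of 8 macrophage markers 0 were called by limma (summed level 5256 to 9064 in Tcell low and 2826 to 11359 in Tcell high livers). Of 6 tested markers of duct or tumour epithelium 1 rose (summed level of all 9 listed 1770 to 2932 in Tcell low and 1725 to 2459 in Tcell high livers). Of 2 tested acinar markers 1 fell, Cela1 (mean 126 in Tcell low and 293 in Tcell high livers). The other, Cela2a, averaged 40.4 in Tcell low and 10.4 in Tcell high livers (1.69, SE 0.64, not called). Its separate value is uncertain, since 74.4% of its 3′ end words also occur in Ctrc. Among listed acinar genes below the minimum, all but Cpa1 had a higher mean in Tcell low livers. The summed level of all 7 listed, 121 to 211 against 253 to 476, was mostly Cela1.

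Regulators of these genes, a list of 28 with hepatocyte factors, cytokine receptors, STAT and C/EBP factors and glucocorticoid targets, were all tested: 3 rose, 2 fell and 23 did not pass, with a median log2 fold change of 0.16. Over all tested genes 12.8% were called. Onecut1, a hepatocyte transcription factor gene, had 158 to 345 scaled counts in Tcell low and 54.8 to 124 in Tcell high livers (1.41, SE 0.29, adjusted p = 0.0169, limma). Il1r1, the receptor of interleukin 1, had 440, 4442, 1412 and 2484 in Tcell low livers, against 183, 343 and 447 at the lowest, median and highest in Tcell high livers (2.32, SE 0.50, adjusted p = 0.0193, limma). Tcell low 1 lay within the Tcell high range for Il1r1 and for Foxa3, another hepatocyte factor gene that rose (810, 4890, 2403 and 2967 in Tcell low, against 601, 811 and 1391 in Tcell high livers; 1.42, SE 0.42, adjusted p = 0.0449, limma). Stat5a, a mediator of growth hormone and cytokine signals, fell (21.5, 0, 11.01 and 11.01 in Tcell low livers, against 26.8 to 64.8 in Tcell high livers; -2.57, SE 0.70, adjusted p = 0.0365 by limma). Onecut1 and Il1r1 were lost without Tcell low 2 or Tcell low 4 (adjusted p up to 0.0653 and 0.0693 by limma). Foxa3 and Stat5a were each kept in 3 of the 10 fits without 1 library, those without Tcell low 1, Tcell high 2 or Tcell high 4 (adjusted p up to 0.154 and 0.078 by limma). Against Tcell high 2 and 4 alone the log2 fold changes were 0.94 for Onecut1, 1.87 for Il1r1, 0.82 for Foxa3 and -2.18 for Stat5a. None of these was called in that fit.

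Secretion and quality control of glycoproteins in the endoplasmic reticulum, the route these serpins take, was read from a list of 30. Of 29 tested, 1 rose, 0 fell and 28 did not pass, and the median log2 fold change was -0.26. By comparison, 12.8% of all tested genes were called. Erlec1, a lectin that hands misfolded glycoproteins to degradation, had 281, 564, 563 and 378 scaled counts in Tcell low livers, against 154, 197 and 296 at the lowest, median and highest in Tcell high livers (1.05, SE 0.26, adjusted p = 0.0261, limma). It was kept without Tcell low 1, Tcell high 2 or Tcell high 4 and lost without each of the other 7 libraries (adjusted p up to 0.0963 by limma). Against Tcell high 2 and 4 alone its log2 fold change was 0.65, not called.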

How the data were processed

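RNA from 10 liver samples was made into 3′ end libraries (QuantSeq FWD), per the labels' protocols. STAR, DESeq2 and the build mm10 are named in the submitters' processing notes, with no version of either tool. What counted the reads, and on which annotation, is not given in the sources used here. Each entry of the deposited table is 1 signal value per gene and library, gene counts that the authors scaled to a common depth. The values are not whole numbers, so no counting interval was computed and the count test planned for whole counts was replaced by limma. An exact 0 may be a failed estimate.

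The log2 of the value plus 1 was compared between groups with limma 3.58.1 in R 4.3.3 (variance trend, group as the only term, two-sided) over 11110 genes with a mean of at least 10, with Benjamini-Hochberg adjustment and a threshold of 0.05. The script was tested on simulated data. The standard error of a sum over copies is from its own fit and is not moderated. Sharing of 3′ ends used GENCODE M21 transcripts with finished 3′ ends. Identity is over aligned bases without gaps (Biopython 1.88). Promoters are from RefSeq.

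The 10 members and all lists were chosen with earlier results of these data known. Genes named outside the copies are up to 5 called genes of lowest adjusted p in each of 4 lists, marker genes of highest mean, and the 3 genes most like each of 3 patterns. Elane, Ctsg, Prtn3, Ngp, Retnlg, Csf3r, Cpa1, Gm8893, H2-L and Hbb-bs fall outside this rule. The values of 1 called regulator are not reported here. Alternatives covered scaling, variance prior, filter, pseudocount, a replicate block and left-out libraries. Figures were drawn with matplotlib 3.10.9.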

Additional observations from a re-analysis of the deposited data

Results flagged for a closer look

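In 5 of 44 groups of 4 or 6 values, 1 library lay far from the nearest of the others relative to the range of its group. The gap was taken on scaled counts, not on their log2, and the groups share libraries. Nothing is therefore read from the number of such groups. Serpina1a was lowest in Tcell low 1, with 32288 scaled counts against 49113 to 52457 in the other Tcell low libraries. Serpina3n was highest in Tcell low 4, with 20310 against 4429 to 6703. Serpina6 was highest in Tcell low 1, with 426 against 21.1 to 38.2. Serpina3k was highest in Tcell high 5, with 45637 against 27182 to 32954 in the other Tcell high libraries. Serpina3c was highest in Tcell high 1, with 3.75 against 0 to 1.05, a level close to the lowest values in the table.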

How the results depend on the processing

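Rescaling by median ratios or trimmed means, the robust variance prior, a minimum mean of 50 and pseudocounts of 0.5 or 10 kept all 5 counts of called genes (copies and the 4 lists) within 1.5 times. Without a filter on low values 3 regulators were called instead of 5. Of 171 fold changes of single copies under alternatives, 157 kept direction and call, 9 lost and 3 gained a call and 2 changed sign, both of Serpina1c, with 0.026 under the replicate block and 0.27 without Tcell high 1, 3, 5 and 6. Without those 4 libraries 0 copies, 0 other serpins, 0 proteases, 0 regulators and 0 secretion genes were called by limma, where 0 of all genes were (1027 at an unadjusted p below 0.05).

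With each library left out, called copies numbered 1 to 6 and other serpins 2 to 8. Proteases numbered 0 to 6, regulators 0 to 9 and secretion genes 0 to 13. The highest of each came without Tcell low 1, where 32.7% of all genes were called. There 1 of the 6 copies was Serpina3c, which was tested and not called when each Tcell high library was left out. Called copies fell to 1 without Tcell low 2 or Tcell low 4. All genes called numbered 109 to 3633 in these fits. Deviations of same-numbered libraries correlated at 0.104, 0.211, -0.0988 and -0.151, and those of unlike-numbered libraries at -0.241 to 0.289. So few values cannot decide whether the numbers pair the libraries. The replicate block left 2 copies, 2 other serpins, 1 regulator, 0 proteases and 0 secretion genes called, with 193 of all genes, and Serpina3k at 1.63 was no longer called. Depth in reads is unknown, which limits what can be said of Serpina3c.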
